A study of Mus musculus with 1 sample.

Results

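The mRNAs of 10 nucleolar proteins that build ribosomes were examined for the length and base composition of their poly(A) tails. They were Npm1, Ncl, Fbl, Nop56, Nop58, Nop10, Nhp2, Gar1, Dkc1 and Nop16, chosen by name, and all 10 were found among 12816 nuclear genes with transcripts. The cells were wild-type mouse epiblast-like cells (EpiLCs) of strain ICR derived from mouse embryonic stem cells by 24 h in N2B27 medium that held 1% KSR (knockout serum replacement), activin A at 20 ng/ml and bFGF at 12 ng/ml. The 1 sample of this group held 2 replicates under different barcodes, and replicates 1 and 2 are numbered by barcode here. The study calls its replicates independent, but neither it nor the labels say whether they came from separate cultures, so their spread may be technical. PAIso-seq reads each full-length cDNA with its tail on the PacBio platform in repeated passes, and 1 read with at least 7 passes counts as 1 transcript. The tail length of a gene is the geometric mean over its transcripts, and SD is the spread of the 2 replicates. No second condition was analysed here, so no test between conditions was possible and all comparisons are descriptions.

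The nucleolus is where ribosomal RNA (rRNA) is transcribed, trimmed, chemically modified and assembled with proteins. Small nucleolar RNAs (snoRNAs) guide many of the modifications and work inside protein complexes of 2 kinds. Box C/D complexes methylate the ribose of rRNA, with Fbl (fibrillarin) as the enzyme and Nop56 and Nop58 as its scaffold. H/ACA complexes turn uridine into pseudouridine, with Dkc1 (dyskerin) as the enzyme and Nop10, Nhp2 and Gar1 as its partners. Npm1 (nucleophosmin) and Ncl (nucleolin) are abundant nucleolar proteins that bind RNA and act as chaperones of assembly, and Nop16 takes part in building the large subunit. A poly(A) tail is added to nearly every mRNA in the nucleus and is then shortened by deadenylases, among them the CCR4-NOT complex.

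The nuclear libraries held 246316 transcripts in replicate 1 and 455660 in replicate 2, of which the 10 genes took 2714 and 6484. Ncl and Npm1 together made up 82.7% of these, so a pool of all transcripts mostly describes that pair. Markers were checked against the labelled cell type. All 4 shared pluripotency markers and all 5 formative markers had at least 10 transcripts (746 and 1052 transcripts in sum), as did 4 of 5 naïve markers. The 13 markers of fibroblasts, primitive endoderm, mesoderm and neural cells had 0 to 3 transcripts each, and 9 of them had 0.

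The 10 tail lengths spanned a range from 51.4 nt to 118 nt. Ordered from short to long, they were Nop58, Nop56, Npm1, Dkc1, Ncl, Gar1, Nhp2, Nop16, Fbl and Nop10. Nop58 lay at percentile 13 and Nop10 at percentile 98.2 of the 7146 nuclear genes that reached 10 transcripts when replicates were pooled. The median of the 10 genes was 83.3 nt, against 76.4 nt for all tested genes (quartiles 62.4 nt and 88.6 nt). This difference of 6.88 nt did not hold in both replicates. It was -0.439 nt in replicate 1, where Fbl had too few transcripts and 9 genes were left, and 7.11 nt in replicate 2, a mean of 3.33 nt ± 5.34 (SD, n = 2). These values rest on unlike gene sets, so the SD is not replicate spread alone. Without Fbl, the median in replicate 2 was 78.9 nt, the value of Ncl, against 76.8 nt for all genes tested there. The genes as a group could therefore not be placed above the typical nuclear gene.

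Pooled over replicates, 6 of the 10 genes lay above the median gene, against 50% of all. With at least 10 transcripts in each replicate, 9 of the genes could be judged in both. Above the median gene in both replicates were 4 of these 9 (Ncl, Nhp2, Nop16 and Nop10), against 35.7% of 4286 nuclear genes. Below it in both were 3 of 9 (Nop58, Nop56 and Npm1), against 33.4% of all. These shares are near those of all genes. Ncl and Npm1 were close calls in replicate 1, at 78.05 nt and 77.55 nt against 77.99 nt for the median gene. Replicate 1 gave the longer tail for 4 of 9, against 52.9% of all genes. Between neighbours in the order, the replicate values did not overlap for Nop58 and Nop56, Nop56 and Npm1, Dkc1 and Ncl, and Nop16 and Fbl. They overlapped for the other 5 neighbouring pairs, so Npm1 and Dkc1, Ncl and Gar1, Gar1 and Nhp2, Nhp2 and Nop16, and Fbl and Nop10 did not differ beyond their spread. Of all 36 pairs of the 9 genes, 29 (80.6%) had replicate values that did not overlap, against 59.1% of all gene pairs. Depth differs between these sets and its part was not tested. In the 450 genes that reached 100 transcripts per replicate, the median difference between replicates was 3.92 nt, against 10.4 nt in the 4286.

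**Figure D1:**
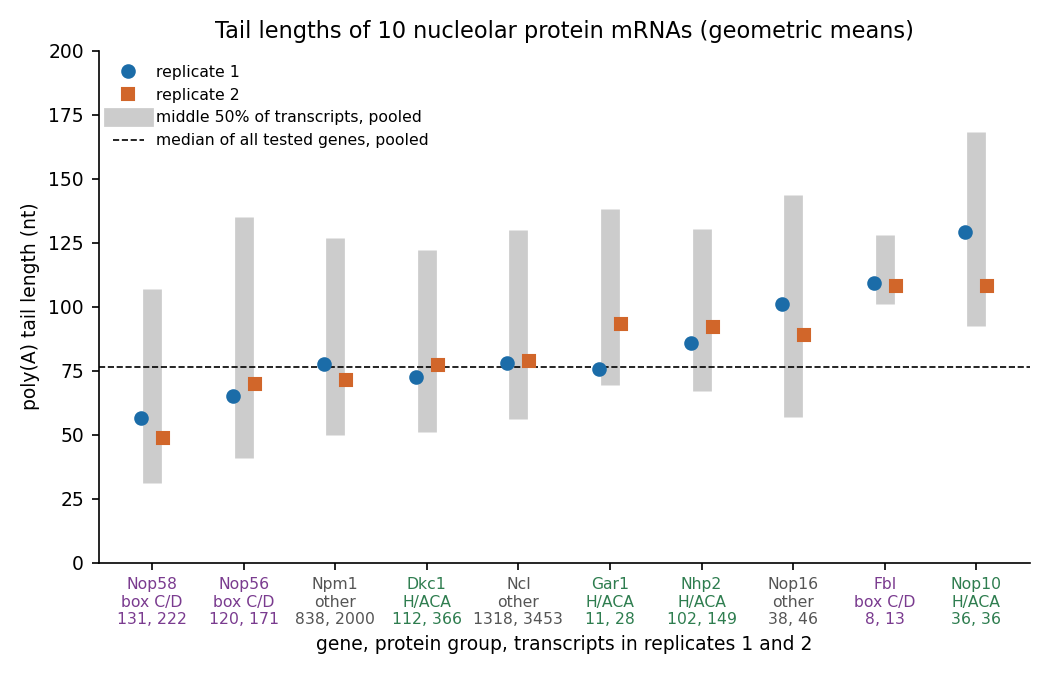
Geometric mean poly(A) tail length in nt of the 10 genes, ordered by the pooled value, with circles for replicate 1, squares for replicate 2, grey bars for the middle 50% of pooled transcripts and a dashed line at the median of all tested genes, 76.4 nt. Both replicates of Nop58 (56.3 nt and 48.7 nt) lie lowest and both of Nop10 (129 nt and 108 nt) lie with Fbl at the top, while the grey bars of most genes overlap.

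Box C/D proteins held the shortest tails and a far longer one. Nop58 (ENSMUSG00000026020, GRCm38 chromosome 1, 59684971 to 59719044) had 56.3 nt in replicate 1 and 48.7 nt in replicate 2, a mean of 52.5 nt ± 5.36 (SD, n = 2) from 131 and 222 transcripts. The middle of its transcripts ran from 31 nt to 107 nt, with a median of 61 nt. Its partner Nop56 (ENSMUSG00000027405, chromosome 2, 130274430 to 130279313), also a scaffold protein, had 65.2 nt and 69.9 nt, a mean of 67.6 nt ± 3.30 from 120 and 171 transcripts. Both Nop56 values lay above both Nop58 values.

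The distributions of the pair differed in form. Tails under 30 nt made up 22.9% of Nop58 transcripts (95% Wilson interval 18.9% to 27.6%) and 17.5% of Nop56 transcripts (13.6% to 22.3%), the highest shares of the 10 genes. Tails over 90 nt were 48.5% for Nop56 (42.8% to 54.2%) but 32.0% for Nop58 (27.4% to 37.0%). Tails of 1 to 5 nt made up 3.4% of Nop58 transcripts, with 0.763% in replicate 1 and 4.95% in replicate 2, while the other nuclear genes had 1.53% and 2.77%. Nop56 combined many short tails with many long ones, and its middle 50% was the widest of the 10 genes, from 41 nt to 135 nt. By the median over transcripts, Nop56 had 87 nt, next to Npm1 at 84 nt and Dkc1 at 87 nt, while Nop58 stayed lowest. In Nop58, the 10-nt bins from 20 nt to 49 nt were the fullest, with 10.2%, 10.2% and 9.92% of transcripts, against 4.83%, 5.36% and 6.47% in the other nuclear genes.

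Fbl (ENSMUSG00000046865, chromosome 7, 28169710 to 28179269), the methyltransferase of the complex, had only 8 and 13 transcripts. Its values were 109 nt and 108 nt, with an interval over transcripts of 89.5 nt to 131 nt that covers counting error only. A processed pseudogene close to it in sequence held far more reads. Gm5812 (ENSMUSG00000051639, chromosome 17, 6121208 to 6122164) matched 984 nt of the Fbl transcript at 96.8% identity and held 299 transcripts, 94 and 205 by replicate, against 21 for Fbl. Transcripts under Gm5812 had 101 nt and 90.8 nt, a mean of 95.7 nt ± 6.96 (SD, n = 2). Counted together, Fbl and Gm5812 had 94.7 nt, at percentile 83.8 in place of 95.3. Whether these reads came from the parent gene or the pseudogene cannot be told apart in the table. Either value lay above both partners of the complex.

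Such near copies, defined as transcripts of other genes with at least 90% identity over at least 150 nt, mattered little for the other genes. Npm1 had 7, which held 5 transcripts in sum against 2838 for Npm1. Nop56 had 6, and Nop10, Nhp2, Gar1 and Dkc1 had 1 each, all with 0 transcripts. None was found for Ncl, Nop58 or Nop16. On the opposite strand, exons of Idh3b overlapped those of Nop56, exons of Rmnd5b those of Nhp2 and exons of Mpp1 those of Dkc1. They held 118, 24 and 50 transcripts. Reads from these neighbours and the members cannot be told apart where their exons overlap, since the strand setting of the gene assignment is not given in the sources used here.

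H/ACA proteins ranged from the longest tail of the set to the middle of all genes. Nop10 (ENSMUSG00000027133, chromosome 2, 112261926 to 112263269), a very small protein that holds the enzyme to its partners, had 129 nt and 108 nt, a mean of 119 nt ± 15 (SD, n = 2) from 36 transcripts in each replicate. The geometric means differed by more than the medians, which were 129.5 nt and 128.5 nt. Only 1 of its 72 tails was under 30 nt, and 75% were over 90 nt (63.9% to 83.6%). The contrast with Nop58 can be seen in a tail of near-median length from each, chosen among the few reads with an inner base other than A (9.92% of Nop58 tails and 8.33% of Nop10 tails). Capitals mark bases other than A, written as DNA from 5′ to 3′.
Nop58, 62 nt: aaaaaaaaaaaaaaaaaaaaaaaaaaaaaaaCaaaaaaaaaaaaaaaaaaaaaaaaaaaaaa
Nop10, 129 nt: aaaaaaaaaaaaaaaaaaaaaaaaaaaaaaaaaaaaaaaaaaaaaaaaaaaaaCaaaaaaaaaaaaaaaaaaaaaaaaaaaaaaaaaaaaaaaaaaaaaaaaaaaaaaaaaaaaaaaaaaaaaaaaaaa

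Nhp2 (ENSMUSG00000001056, chromosome 11, 51619735 to 51623714), an RNA-binding protein of the complex, had 85.9 nt and 92.0 nt, a mean of 88.9 nt ± 4.34 from 102 and 149 transcripts. No tail of 1 to 5 nt was seen among its 251 transcripts, which allows a share of up to 1.2%. Gar1 (ENSMUSG00000028010, chromosome 3, 129824912 to 129831396), which joins the mature complex, had 75.7 nt and 93.2 nt from 11 and 28 transcripts. Its SD of 12.3 nt left it on no settled side of the median gene. Dkc1 (ENSMUSG00000031403, chromosome X, 75095854 to 75109777), the pseudouridine synthase, had 72.6 nt and 77.1 nt from 112 and 366 transcripts, a mean of 74.8 nt ± 3.16. It lay at percentile 49.3 of all genes, the most typical tail of the 10. None of its 478 tails had 1 to 5 nt, which allows up to 0.628%, against 2.33% in the other nuclear genes.

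The medians of the groups were 67.9 nt for the 3 box C/D genes and 88.7 nt for the 4 H/ACA genes, a difference of -20.7 nt. In replicate 1, without Fbl, it was -20.0 nt, and in replicate 2, with Fbl, it was -22.7 nt. These values rest on unlike gene sets, so their closeness is not agreement between replicates. With Fbl kept despite its few transcripts, the medians in replicate 1 were 65.2 nt (box C/D) and 80.8 nt (H/ACA). In replicate 2 they were 69.9 nt and 92.6 nt. The groups overlapped, since Fbl lay above 3 of the 4 H/ACA genes. The difference also rested on short tails, and was -4.37 nt when tails under 15 nt were left out. Coding length differed too, from 981 nt to 1740 nt in box C/D genes and from 192 nt to 1527 nt in H/ACA genes. Its part in the difference was not tested.

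Of the 3 remaining genes, Ncl (ENSMUSG00000026234, chromosome 1, 86344719 to 86359400) was measured most deeply, with 1318 and 3453 transcripts. Its values of 78.1 nt and 78.9 nt were nearly identical, a mean of 78.5 nt ± 0.576 (SD, n = 2), and the median over transcripts was 91 nt in both replicates. Npm1 (ENSMUSG00000057113, chromosome 11, 33152287 to 33163206) had 77.5 nt and 71.5 nt, a mean of 74.5 nt ± 4.30 from 838 and 2000 transcripts. Both Npm1 values lay below both Ncl values, by less than 1 nt in replicate 1. In Npm1 the tails of 1 to 5 nt were 0.358% in replicate 1 (0.122% to 1.05%) and 2.0% in replicate 2 (1.47% to 2.71%), intervals that did not overlap. The other nuclear genes moved the same way, with 1.53% and 2.77%. Of the Npm1 tails 46.1% were over 90 nt (44.3% to 48.0%), and of the Ncl tails 50.4% (49.0% to 51.8%). The number of transcripts also differed between replicates, at 340 and 439 per 100000 nuclear transcripts for Npm1 and 535 and 758 for Ncl. Nop16 (ENSMUSG00000025869, chromosome 13, 54584185 to 54590090) had 101 nt and 88.9 nt from 38 and 46 transcripts, a mean of 94.9 nt ± 8.46, above the median gene in each replicate.

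**Figure D2:**
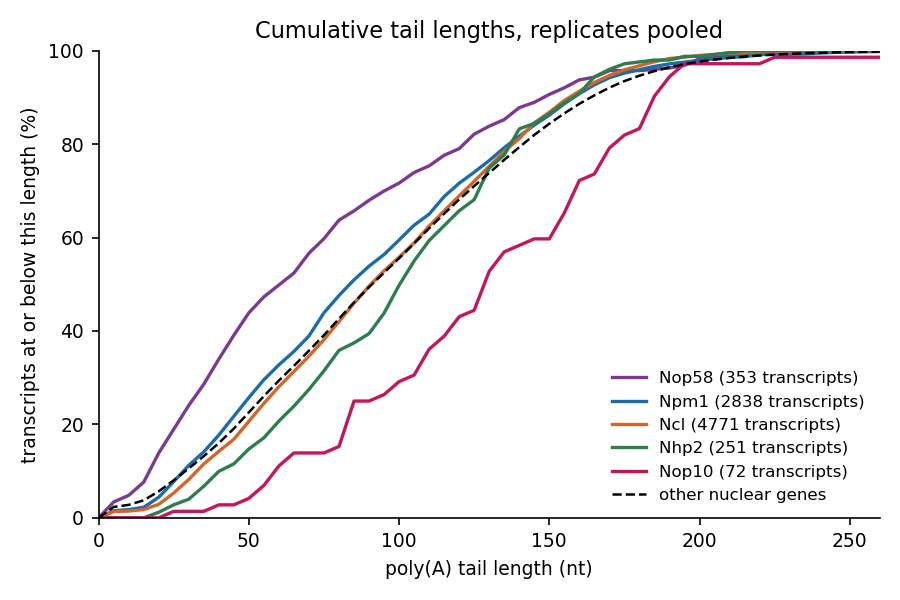
Percentage of transcripts at or below each poly(A) tail length in nt, replicates pooled, for 5 of the genes and for all other nuclear genes (dashed). The Ncl line (50.4% of tails over 90 nt) follows the dashed line closely, Nop58 rises early with 22.9% of tails under 30 nt, and Nop10 rises late with 75% of tails over 90 nt.

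Genes most like each member were taken as those with the smallest largest gap between cumulative distributions, among 602 protein-coding genes with at least 200 transcripts. Npm1 was nearest to Serbp1, an mRNA-binding protein of ribosomes, with a gap of 0.0197, followed by Brix1, a large subunit assembly factor, and Hnrnpf. Ncl was nearest to Rpl7l1 (0.0199), Tubb4b and Hspd1. Nop58 was nearest to Rbbp7 (0.0325), Nop56 to Phc1 (0.0433), Nhp2 to Slc25a5 (0.0393) and Dkc1 to Mcm6, a subunit of the replication helicase (0.0293). These gaps describe the pooled libraries of 1 sample.

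Coding length was compared with tail length because it differs widely among these genes, from 192 nt in Nop10 to 2121 nt in Ncl (longest annotated coding sequence without the stop codon). Spearman's correlation over the 10 genes was -0.697, with -0.636 in replicate 1 and -0.673 in replicate 2. It was -0.386 over 6754 protein-coding genes. Over the 6 members with at least 100 transcripts it was only -0.314. The genes left out had few transcripts but also included Nop10, with the shortest coding sequence, so depth and range of coding length cannot be told apart here. The points are genes of the same libraries, not independent replicates. Each gene was then set beside the protein-coding genes whose coding length was within 20% of its own. Nop58 was 22.0 nt below the median of its 1497 length neighbours, at percentile 13.5, and Fbl was 30.0 nt above that of 1290, at percentile 97.1. Nop10 lay 12.7 nt above, at percentile 80.0 of only 40 neighbours, so its place was less extreme than among all genes. Ncl, with a tail longer than most genes of its coding length, was 9.21 nt above, at percentile 70.6. The differences of Nop10, Gar1 (6.13 nt), Dkc1 (2.28 nt) and Nhp2 (1.32 nt) were smaller than the replicate SDs of these genes.

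**Figure D3:**
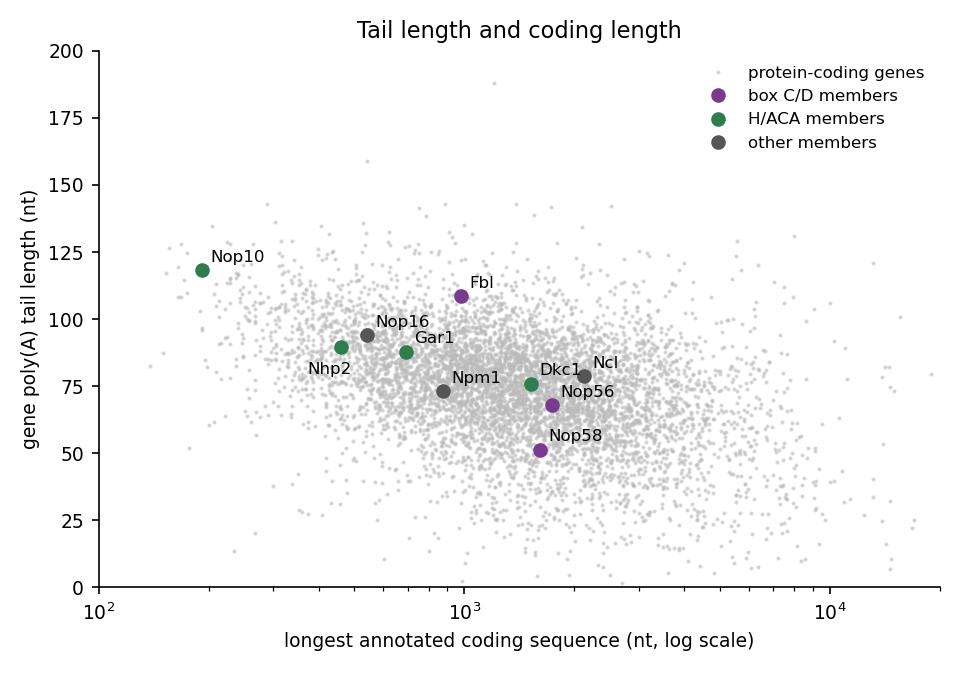
Gene poly(A) tail length in nt (replicates pooled) against the longest annotated coding sequence in nt on a log axis, for protein-coding genes (grey) and the 10 members (coloured by complex). Nop10, with a coding length of 192 nt, has the longest tail of the members at 118 nt, and Nop58 at 51.4 nt lies below most genes of its coding length.

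Bases other than A were then counted. Of all tails of the 10 genes, 10.8% held at least 1 such base (10.2% to 11.5%), with 13.7% in replicate 1 and 9.59% in replicate 2, a mean of 11.6% ± 2.91 (SD, n = 2). The other nuclear genes had 12.1% and 9.54%, so the replicates differed by more than the genes did. Npm1 stood above Ncl in each replicate. Npm1 had 16.5% in replicate 1 (14.1% to 19.1%) and 12.2% in replicate 2 (10.8% to 13.7%). Ncl had 11.5% (9.85% to 13.3%) and 8.31% (7.44% to 9.28%). The intervals of the pair did not overlap within either replicate. Without the outermost base at either end, Npm1 still had 10.1% (9.02% to 11.2%) and Ncl 6.16% (5.51% to 6.88%). These shares still count bases 2 to 6 at the start of the tail. There Npm1 also had more T at base 4, with 1.07% against 0.0849% in Ncl. How much of the gap came from these first bases was not tested.

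By base, Npm1 tails held T in 7.89%, C in 4.4% and G in 2.96%, against 5.37%, 2.49% and 2.20% in Ncl. The pooled intervals did not overlap for T and C, but for G they did, at 2.40% to 3.65% in Npm1 and 1.82% to 2.66% in Ncl. Some positions near the start of the tail also stood out, the fourth most. The fourth base was T in 1.07% of Npm1 tails longer than 4 nt (30 of 2798, interval 0.752% to 1.53%), with 0.838% in replicate 1 and 1.17% in replicate 2. In the other nuclear genes that share was 0.115%. T at base 3 (0.357%), G at base 5 (0.322%) and T at base 6 (0.394%) were also more frequent in Npm1. The other nuclear genes had 0.159%, 0.0664% and 0.0759% there. For T at base 3 the replicates gave 0.719% and 0.204%, against 0.170% and 0.152% in the other genes. The excess there rested mostly on replicate 1. T at base 2 had 0.178% (0.0760% to 0.416%) against 0.348%, a difference that was not detectable at this depth. By the methods, tails were unaligned 3′ bases that could be extended upstream over aligned runs of A, and sequences with under 4 A in the first 8 bases were removed, so the processing acts on this stretch. Whether these bases are part of the tail or of the transcript end was not tested. A 72-nt tail of replicate 2 shows the T at the fourth base.
Npm1, 72 nt: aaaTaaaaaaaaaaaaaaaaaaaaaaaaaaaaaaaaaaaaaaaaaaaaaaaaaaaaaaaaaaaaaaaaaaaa

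Terminal T, which stands for U in the RNA, was most frequent in tails of 6 to 30 nt. Over the 10 genes, 107 of 714 tails between 16 and 30 nt ended in T, or 15% (12.6% to 17.8%), with 18.2% in replicate 1 and 13.3% in replicate 2. Among tails between 61 and 90 nt the share was 1.51% (1.06% to 2.16%), and among those over 90 nt it was 1.98%. The other nuclear genes had 13.2%, 2.02% and 1.55% in the same classes. In tails between 6 and 15 nt they had 24.9% (24.1% to 25.8%). The 10 genes had 17.6% there from only 85 tails (11% to 27.1%), and this difference was not detectable at this depth. Tails of 1 to 5 nt ended in T in only 1.64% of cases in the other nuclear genes and 3.28% in the 10 genes (4 of 122). Within the class of 16 to 30 nt, Ncl had 19.5% (15.5% to 24.3%, 60 of 307) and Npm1 10.6% (7.38% to 15%, 27 of 255), and the order was the same in each replicate, with 21.4% against 13.5% in replicate 1 and 18.5% against 9.39% in replicate 2. The replicate values of the pair did not overlap, but their Wilson intervals within each replicate did. Npm1 thus had more tails with a base other than A than Ncl, but a lower share ending in T within this class. Over all lengths the shares ending in T were alike, at 3.07% in Npm1 (2.49% to 3.77%) and 2.93% in Ncl (2.49% to 3.45%). Shown to make this ending visible, the following tails are the reads with the most passes among those of 16 to 30 nt that ended in T and held no C or G, with the T bases in capitals.
Npm1, 21 nt: aaaaaaaaaaaaaaaaaaaTT
Ncl, 23 nt: aaaaaaaaaaaaaaaaaaaaTTT
Dkc1, 23 nt: aaaaaaaaaaaaaaaaaaaaaaT
Nop58, 18 nt: aaaaaaaaaaaaaaaaTT

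**Figure D4:**
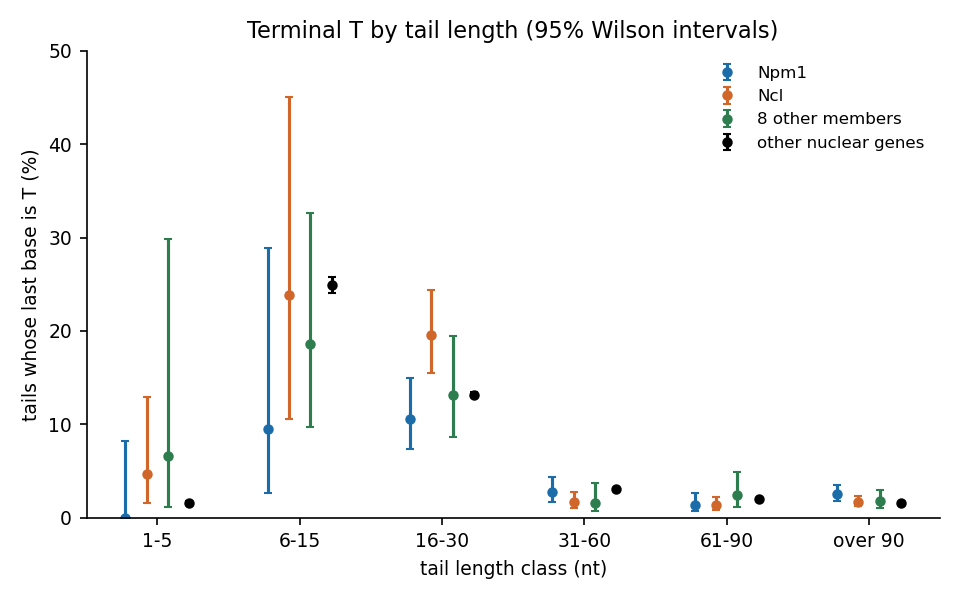
Percentage of tails whose last base is T, by tail length class in nt, for Npm1, Ncl, the 8 other members and all other nuclear genes, replicates pooled, with 95% Wilson intervals. In tails of 16 to 30 nt Ncl has 19.5%, above Npm1 with 10.6% and the other nuclear genes with 13.2%, and above 60 nt the 4 sets run from 1.34% to 2.52%.

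Over all lengths, Dkc1 tails ended in T in 5.44% of cases (3.74% to 7.85%), against 3.06% in the other nuclear genes. Its replicates gave 8.93% and 4.37%, against 3.92% and 2.59% in the other genes. Nop56 was lowest among genes with at least 100 transcripts, with 1.03% (0.351% to 2.99%), although 17.5% of its tails were short. Its replicates were 2.50% and 0%, from 171 transcripts in the latter. The smaller genes had too few reads for such shares to be ordered, as in Gar1, where 3 of 39 tails gave 7.69% (2.65% to 20.3%).

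The other genes of the pathway were taken from a list of 157, of which 154 had at least 10 transcripts. Above the median gene were 71 of these, or 46.1%, against 50% of all nuclear genes. Their median was 75 nt. By role, the 50 small subunit processome genes centred on 71.8 nt, and 19 lay above the median gene. Krr1 was the shortest named by the rule, with 65.3 nt and 38.1 nt, and Utp11 the longest, with 103 nt and 93.2 nt. Large subunit assembly genes had 77.3 nt over 53 genes, with 30 above. They ran from Mdn1, a giant ATPase, with 38.4 nt and 17.0 nt, to Pes1 with 102 nt and 97.4 nt. Exosome and cleavage genes, which trim rRNA precursors, had 73.4 nt over 23 genes, with 6 above. Dis3, the exosome nuclease, had 38.0 nt and 39.4 nt, and C1d, a cofactor of the exosome, had 99.8 nt and 103 nt. RNA polymerase I genes had 80.1 nt over 15 genes, with 9 above. Under the same limit per replicate they ran from Twistnb (75.2 nt and 47.6 nt) to Rrn3 (86.0 nt and 96.5 nt). By replicate, the medians were 84.0 nt and 74.1 nt for RNA polymerase I genes and 79.3 nt and 73.9 nt for large subunit genes. All nuclear genes had 78.0 nt and 76.8 nt, so both roles lay above in replicate 1 and below in replicate 2. Above the median gene in both replicates were 4 of 10 and 16 of 49 of these genes, against 35.7% of all.

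Closest to the 10 genes in role were the partners and assembly factors of snoRNA complexes, with a median of 76.1 nt over 12 tested genes and 6 above the median gene. Snu13, the remaining core protein of box C/D complexes, had 75.4 nt and 82.0 nt, above both Nop56 values and below both Fbl values. Naf1, an H/ACA assembly factor, was shortest but differed widely between replicates, with 99.8 nt and 41 nt, and Znhit6 was longest with 91.6 nt and 95.5 nt. Npm3, the relative of Npm1, had 89.2 nt and 109 nt from 56 transcripts, above both Npm1 values. Npm2 had 0 transcripts. Cytosolic ribosomal protein genes, whose products the nucleolar proteins assemble, had a median of 89.2 nt over 63 tested genes, with 49 above the median gene, or 77.8%. By replicate their median was 92.4 nt and 85.7 nt, against medians of 77.5 nt (9 genes, without Fbl) and 83.9 nt (10 genes) for the nucleolar set. The ribosomal protein median was the higher in both replicates. Ribosomal protein genes also had shorter coding sequences, with a median of 468 nt. The 10 genes had 928.5 nt and all nuclear genes 1363.5 nt, and the part of coding length was not tested. In replicate 2 the gap of the medians was smaller than the SD of 4.47 nt between the replicate medians of the nucleolar set. That SD compares 9 genes with 10, however. Without Fbl, which had 13 transcripts in replicate 2, the nucleolar median there was 78.9 nt, the value of Ncl. Whether the sets were separated in replicate 2 could therefore not be settled.

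**Figure D5:**
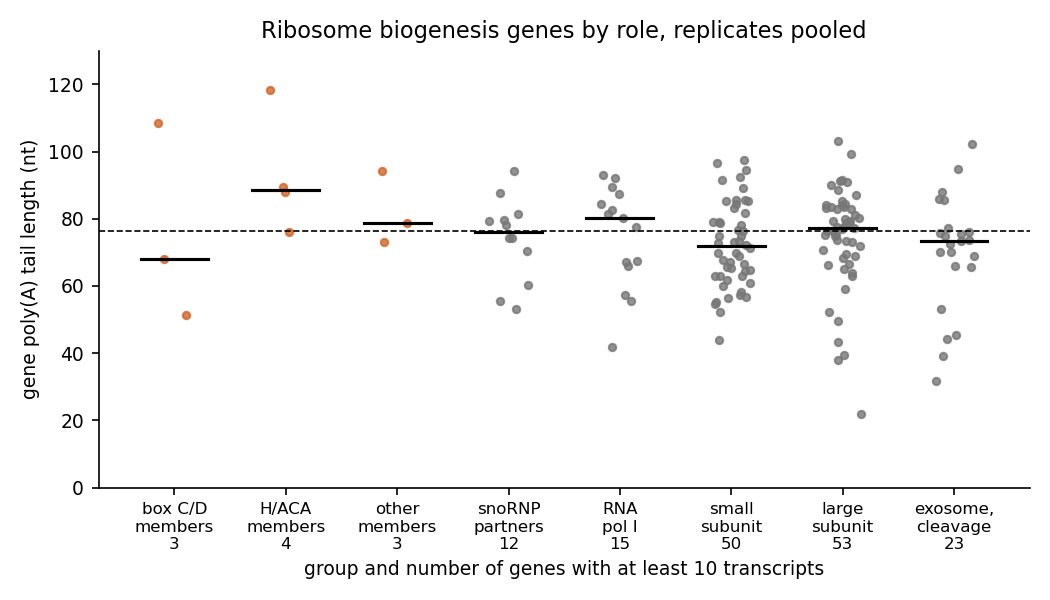
Gene poly(A) tail length in nt of the 10 members (orange, split by complex) and of other ribosome biogenesis genes (grey, split by role), 1 point per gene with at least 10 transcripts, bars at the group medians and a dashed line at the median of all tested genes, 76.4 nt. The groups overlap broadly, with medians from 67.9 nt in box C/D members to 88.7 nt in H/ACA members.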

How the data were processed

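The deposited table gave, per read, a barcode, a gene identifier, counts of passes and counts of each base in the tail, with the tail sequence and no normalization. According to the methods, the authors made circular consensus reads, split them by barcode, mapped them to mm10 with minimap2 (version 2.17 in the submitters' notes), took soft-clipped 3′ bases as candidate tails, removed those with under 4 A in the first 8 bases, left out reads without a tail, extended tails upstream over aligned runs of A where needed and assigned genes with featureCounts (2.0.1). In the table, 0 of 684759 nuclear tails of at least 8 nt broke this rule for A, while 14491 tails under 4 nt were kept. Library input was 500 ng of total RNA. Reads numbered 378458 and 635217. Genes were named with GENCODE vM21 (GRCm38), which held 12955 of 12962 identifiers, and mitochondrial genes were left out. Tail length was the sum of A and other bases. Shares have 95% Wilson intervals, the limit of a count of 0 is 3 counts of the total, and intervals of gene tails come from the standard error of log lengths. Reads have no molecular identifiers, so all cover counting error only. Near copies were found with minimap2 2.31 against GENCODE transcripts. The named genes outside the members were, in each role, the longest and the shortest tail where both replicates reached 10 transcripts, plus Snu13 and Npm3, and the genes nearest in distribution to each member with 200 transcripts or more. The members and lists were chosen with earlier results of these data known. The geometric mean per gene was tested on simulated data, and the other steps were not. Counting Gm5812 with Fbl was chosen after seeing the data. Versions were matplotlib 3.10.9, scipy 1.17.1, pandas 2.3.3, numpy 2.4.6 and Python 3.11.15.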

Additional observations from a re-analysis of the deposited data

How the results depend on the processing

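No paired analysis was possible because the sample formed a single group. A shift was judged by the SD between replicates. The difference of the 10 genes from all nuclear genes was 1.44 nt where both replicates had to reach 10 transcripts, a setting that leaves out Fbl. It ran from -0.439 nt to 7.11 nt when 1 replicate was left out, with the reversal in replicate 1 alone, which also lacked Fbl. The median of the 10 genes was 97.3 nt by arithmetic means and 94.5 nt by medians per gene, and 77.5 nt to 83.9 nt in single replicates. The difference of box C/D from H/ACA genes stayed negative in every alternative run. It was -18.0 nt without tails under 6 nt and -4.37 nt without tails under 15 nt. With the arithmetic mean it was -8.04 nt, and with the median -12.5 nt. In single replicates it ran from -22.7 nt to -20.0 nt, the latter in replicate 1 without Fbl, so its SD is not replicate spread alone. The share of other ribosome biogenesis genes above the median gene was 44.2% with no minimum of passes, 39.0% with tails of at least 6 nt and also of at least 15 nt, 42.9% with the median per gene, 43.5% with at least 20 transcripts, 42.6% with at least 10 in each replicate, 48.1% against protein-coding genes only, and 40.7% to 42.3% in single replicates. Weighting each member equally moved the share of tails over 90 nt to 55.5%. Leaving out the first and last base moved the share with a base other than A to 7.69%. The number of members above the median gene ran from 4 to 7. Nop58 was shortest and Nop10 longest in the 9 alternatives that gave all 10 genes a value. Genes with under 100 transcripts were limited by depth.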
